A study of Drosophila melanogaster with 12 samples.

Results

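The mitochondrial ribosomal protein genes of Drosophila melanogaster were followed through 4 groups of adult heads. They were chosen by name: 73 of the 17737 genes listed in the count files begin with mRpL (large subunit) or mRpS (small subunit) followed by a digit. The 72 with a mean of at least 10 counts over the 12 libraries were kept, 46 of the large and 26 of the small subunit by name alone. The study asked what loss of Nab2, a zinc-finger protein that binds polyadenosine RNA, does to the head transcriptome of each sex. Heads of newly eclosed adults were pooled, 60 a sample, and total RNA depleted of ribosomal RNA was sequenced as stranded paired-end libraries. The groups were null females, wild-type females, null males and wild-type males, with 3 libraries each. Null flies carried the Nab2 allele ex3 and wild-type flies the control allele pex41. The labels call the libraries biological replicates and give neither the crosses nor the days of collection, so the p-values measure the spread between these pools. A head pool mixes brain, eye, fat body, muscle and cuticle, and the labels name no driver that would confine the null allele to one cell type, nor its zygosity.

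Mitochondria carry their own ribosomes, which make the few respiratory chain subunits encoded in mitochondrial DNA. The ribosomal RNA is transcribed inside the organelle, whereas every protein of both subunits is encoded in the nucleus, translated in the cytosol and imported. Many of these proteins descend from bacterial ribosomal proteins and keep the bacterial number, and others were added in the mitochondrial lineage. In flies, the small-subunit proteins S12 and S15 have genes under other names, technical knockout (tko) and bonsai, and mutants of tko develop slowly and have seizures after mechanical shock.

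Libraries held 23648813 to 30751922 counts assigned to genes. Nab2 itself had 13, 20 and 32 counts in null females, against 1697, 1612 and 1362 in wild-type females, and 82, 15 and 11 counts in null males, against 1635, 1946 and 1897 in wild-type males. The 38 genes of the mitochondrial genome were listed at 0 in all 12 libraries, so the ribosomal RNA of the mitochondrial ribosome could not be set beside its protein genes. Markers of tissues outside the head summed to 1.73 to 7.59 CPM, and every neuronal and photoreceptor marker was above 0 in all groups. Null female library 1 stood apart. Its share of counts on the abundant nuclear RNA 7SK was 1.91%, against 0.960% to 1.27% in the other 11 libraries, and its TMM scaling factor was 0.865, against 0.965 to 1.06. Counts of members called between null and wild-type females are given with and without it. Members had mean counts of 133 to 2950 and no count under 54 in any library.

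Placed on the annotation of build BDGP6.54, the members lay on all major chromosome arms, with 12 on 2L, 11 on 2R, 17 on 3L, 21 on 3R and 11 on X. They are short genes. Their exonic length, all annotated exons merged, had a median of 783 bases (327 to 2078), and 50 of the 72 were under 1000 bases, against a median of 2093 for the other protein-coding genes tested. Exons of 42 members shared bases with another gene, in nearly all cases on the opposite strand. Only mRpS14, with CG32533, and mRpL13, with CG10602, overlapped a gene on their own strand. The strand setting of the authors' counting is not given in the sources used here, so reads in such shared stretches cannot be assigned with certainty. The gene left out by the minimum was mRpL53, with 0 counts in all 12 libraries. All 829 of its exonic bases (chromosome arm 2R, 13954195 to 13955664, plus strand) are shared with CG33155 on the same strand, with AGO1 on the opposite strand, or with both, so its 0 sets no limit on its RNA.

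The mitochondrial ribosomal protein genes were expressed at moderate levels that differed 11.4-fold between the highest and the lowest member. Levels here are CPM, counts relative to a library's TMM-adjusted total, per kilobase of exon and averaged over the 12 libraries. The median member had 25.5 CPM per kilobase, with 24.0 for the large and 27.4 for the small subunit, against a median of 614 CPM per kilobase for the cytosolic ribosomal proteins. In a mixed tissue, fewer cells of a type and less RNA per cell cannot be told apart, and this holds for every level below. The highest members were mRpL28 (large subunit) at 95.7 ± 11.6 CPM per kilobase and 3 small-subunit genes, mRpS9 at 77.4 ± 12.7, mRpS5 at 66.2 ± 9.8 and mRpS33 at 54.1 ± 12.1 (SD, n = 12). In bacteria, S5 lines the channel through which messenger RNA enters and S9 reaches the tRNA sites. The lowest were mRpL41 at 8.41 ± 2.0 CPM per kilobase, mRpS6 at 8.82 ± 1.2, mRpL21 at 9.18 ± 1.6 and mRpS28 at 10.7 ± 1.9 (SD, n = 12), and each of these 4 differed from its neighbour in the order by less than an SD. For mRpS9, 25.1% of the exonic bases are shared with ArgRS-m on the opposite strand.

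**Figure D1:**
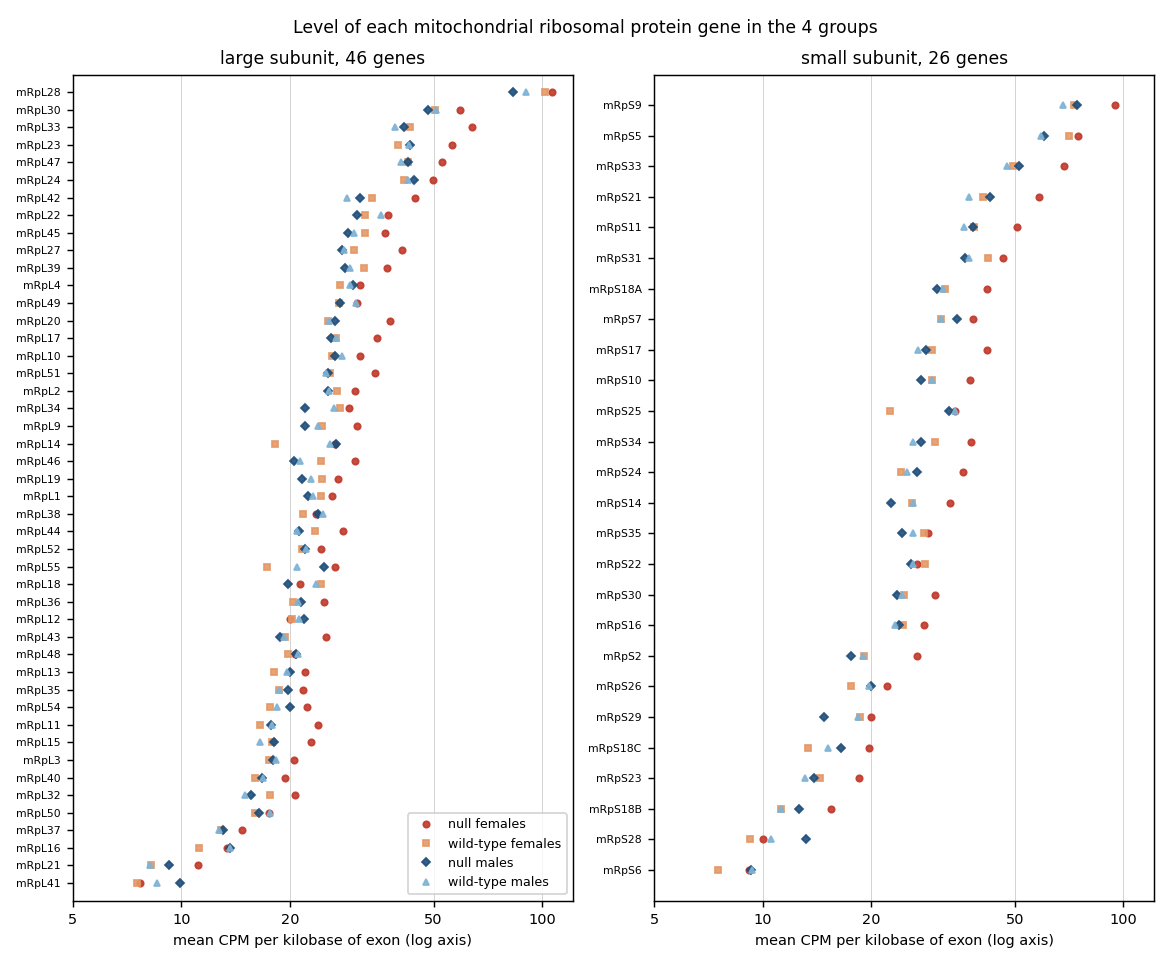
Mean level of each of the 72 genes in each group, in CPM per kilobase of exon on a log axis, with large-subunit genes on the left and small-subunit genes on the right, ordered by the mean over 12 libraries. Circles for null females lie to the right of the other 3 groups for most genes, while the order of the genes is much the same in all groups.

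The stalk proteins and the S18 paralogs were read whatever their result. On the bacterial ribosome, L10 and L12 form the stalk that recruits translation factors, and L11 sits at its base. Their genes were close in level, at 28.0 ± 3.2 CPM per kilobase for mRpL10, 19.0 ± 4.2 for mRpL11 and 20.8 ± 1.5 for mRpL12 (SD, n = 12). Flies, like mammals, have 3 genes for relatives of bacterial S18. Their levels spread wider: mRpS18A stood at 33.9 ± 6.8 CPM per kilobase, mRpS18C at 16.2 ± 3.6 and mRpS18B at 12.6 ± 2.0 (SD, n = 12). In mammals the product of the S18A relative sits in the large subunit and those of the other 2 in the small one.

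In females, the mitochondrial ribosomal protein genes were higher in null heads than in wild-type heads, by a small amount shared by most of them. The fitted log2 change had a median of 0.28 (1.22-fold), against 0.01 for all 11223 genes tested, and 69 of the 72 members lay above 0. By edgeR's quasi-likelihood test with Benjamini-Hochberg adjustment over all genes, 19 members rose and 0 fell at an adjusted p under 0.05. Of all genes tested, 31.8% were called in this comparison, 18.2% higher and 13.6% lower. The share of members called higher was 26.4%. At an unadjusted p under 0.05, 42 members (58.3%) were higher and 0 lower, against 24.3% and 19.95% of all genes. All 3 null libraries lay above all 3 wild-type libraries for 28 members, or 38.9%, against 24.7% of all genes and 44.4% of other protein-coding genes under 1000 exonic bases. Summed over the 72 genes, the level was 2483, 1926 and 1932 CPM in null females, against 1868, 1716 and 1711 CPM in wild-type females. The groups did not overlap in this sum, but null female library 1 was far above the rest.

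Both subunits, assigned here by the letter in the name alone, held called genes. This puts mRpS18A in the small subunit, although the product of its mammalian relative sits in the large one. Any other member whose name and place differ would be misassigned too. In the large subunit 10 of 46 genes rose, with a median log2 change of 0.25, and in the small subunit 9 of 26 rose, with a median of 0.35. These are 21.7% and 34.6%, against the 18.2% of all genes called higher, so the share in the large subunit was near that of all genes. Of the 39 members that share a number with a bacterial protein 12 rose (30.8%, median 0.28), and of the 26 found by number in mitochondria only 4 rose (15.4%, median 0.23), a share below that of all genes. The 3 S18 paralogs and mRpL47, mRpL55, mRpS24 and mRpS28 were placed in neither, among them the called mRpL55, mRpS24 and mRpS18B. Without null female library 1, 2 genes of the large subunit rose and 1 fell, 4 of the small subunit rose, 3 of those shared with bacteria rose and 1 fell, and 1 found in mitochondria only rose. No test of the difference between these subgroups was made. The balance between the subunits, as assigned by name, moved little. Summed large-subunit CPM divided by summed small-subunit CPM was 1.402, 1.346 and 1.388 in null females, against 1.396, 1.423 and 1.412 in wild-type females, and the groups overlapped.

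Among the 8 members with the highest called changes, mRpL55, of the large subunit, had 13.5, 11.1 and 11.9 CPM in null females, against 9.36, 7.75 and 6.52 CPM in wild-type females. The groups did not overlap, and the log2 change was 0.62 (SE 0.16, adjusted p = 0.0122). For mRpS25, a small-subunit protein absent from bacteria, levels were 26.8, 19.7 and 19.2 CPM in null females, against 16.2, 13.0 and 14.3 CPM in wild-type females. Its groups did not overlap either, and it rose by 0.60 on the log2 scale (SE 0.13, adjusted p = 0.00674), the smallest adjusted p of any member in this comparison. It was the only member called under all 20 alternative analyses, with adjusted p-values from 0.00064 to 0.0404. The gene lies on chromosome X, 14582136 to 14582982, minus strand, and shares 6.08% of its exonic bases with CG14414 on the other strand.

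For mRpL33, which has 349 exonic bases, null females had 28.3, 19.3 and 19.3 CPM, against 16.1, 13.6 and 15.3 CPM in wild-type females. All null libraries were above all wild-type libraries, and it rose by 0.57 (SE 0.15, adjusted p = 0.0168). For mRpL14, a relative of the bacterial L14 at the face between the subunits, null females had 20.5, 16.1 and 15.6 CPM, against 14.1, 10.9 and 10.6 CPM in wild-type females. It rose by 0.55 (SE 0.13, adjusted p = 0.0108) with no overlap. The stalk-base gene mRpL11 had 22.6, 15.5 and 14.7 CPM in null females, against 13.6, 10.8 and 12.0 CPM in wild-type females. Here too the groups were apart, and the log2 change was 0.53 (SE 0.16, adjusted p = 0.0255). The other 3 of the 8 were mRpS24 and mRpS17 of the small subunit and mRpL20 of the large subunit. In the order mRpS24, mRpL20 and mRpS17 they had log2 changes of 0.57 (adjusted p = 0.0278), 0.56 (adjusted p = 0.0334) and 0.50 (adjusted p = 0.0259) and no overlap between groups. For mRpS24, 55.3% of the exonic bases are shared with TBC1d7 on the opposite strand, so its value is uncertain. Without null female library 1, mRpL33, mRpL11, mRpS24, mRpL20 and mRpS17 lost the call and mRpL14 kept it (0.40, adjusted p = 0.0400). The 11 further called members changed by 0.27 to 0.49, among them the abundant mRpS9, which had 146, 109 and 111 CPM in null females, against 93.1, 95.8 and 94.3 CPM in wild-type females (0.37, SE 0.10, adjusted p = 0.0159).

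The stalk and S18 genes were in part called, and no difference between genes was tested. Of the stalk genes, mRpL11 rose, while mRpL10 had a log2 change of 0.26 (SE 0.11, adjusted p = 0.101) and mRpL12 one of -0.02 (SE 0.09, adjusted p = 0.881). For mRpL12, levels were 16.4, 13.9 and 14.0 CPM in null females, against 16.0, 15.3 and 13.6 CPM in wild-type females, a full overlap. Of the S18 genes, mRpS18B rose, with 14.3, 12.9 and 12.7 CPM in null females against 10.9, 9.79 and 8.37 CPM in wild-type females (0.45, SE 0.11, adjusted p = 0.0102). The other 2 did not pass the test, at 0.39 (SE 0.16, adjusted p = 0.0796) for mRpS18A and 0.56 (SE 0.20, adjusted p = 0.0533) for mRpS18C, and in both the groups overlapped. The most abundant member per kilobase, mRpL28, had 144, 116 and 114 CPM in null females, against 115, 122 and 122 CPM in wild-type females (0.06, SE 0.09, adjusted p = 0.611), and this small change turned negative under other scalings. Members at the extremes of level are given next, again with no test between genes. For mRpS5, null females had 114, 142 and 120 CPM, against 136, 103 and 118 CPM in wild-type females, an overlap (0.07). For mRpS33, null females had 43.9, 26.8 and 30.1 CPM, against 27.4, 21.5 and 23.7 CPM in wild-type females, and it rose by 0.47 (SE 0.15, adjusted p = 0.0362) although null library 2 lay below wild-type library 1. Of the lowest members, mRpL21 rose, with 22.5, 17.2 and 16.8 CPM in null females against 16.4, 12.7 and 12.8 CPM in wild-type females (0.43, SE 0.13, adjusted p = 0.0293). Its groups did not overlap. For mRpS6, null females had 6.06, 5.55 and 5.61 CPM, against 5.23, 4.43 and 4.50 CPM in wild-type females (0.28, adjusted p = 0.156). The member with the fewest counts, mRpL41, had 2.41, 5.74 and 5.50 CPM in null females, against 5.40, 3.85 and 4.12 CPM in wild-type females (0.04). Without null female library 1, mRpS33 and mRpL21 were no longer called. The mRpS6 groups were apart without a call, and in mRpL41 null female library 1 was the lowest of all 12 libraries.

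The 3 members below 0 were mRpL18 (-0.19, adjusted p = 0.205), mRpS22 (-0.08, adjusted p = 0.536) and mRpL12. The first 2 of these are named here because of their values.

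**Figure D2:**
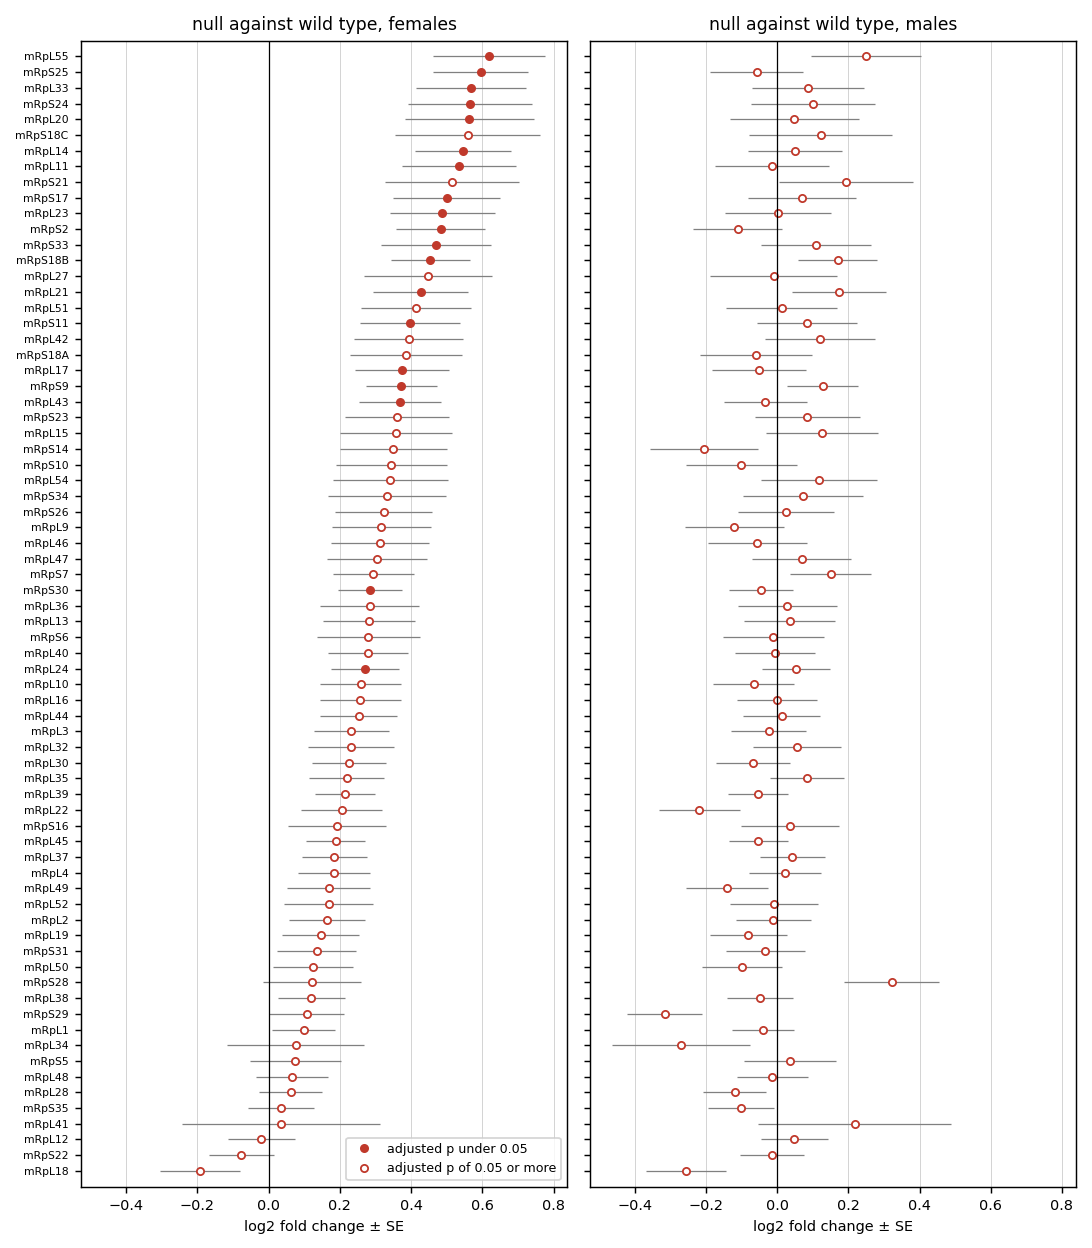
Fitted log2 fold change of each of the 72 genes, null against wild type, in females on the left and in males on the right, with bars of 1 SE and the same gene order in both panels. In females 69 points lie above 0 and 19 are called (filled), while in males the points scatter around 0 and none is called.

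The size of the female change depended on single libraries. With null female library 1 left out, 6 members rose and 1, mRpL18, fell, and the median log2 change was 0.15. The 6 were mRpL55, mRpS25, mRpL14, mRpS2, mRpS18B and mRpS9. The count was also lower without wild-type female library 2 (6 members) or wild-type female library 3 (4 members), and it was higher without null female library 2 (31 members). The shares of all genes called in these refits are not given here, so the counts have no background beside them. Without null female library 1, other protein-coding genes of 500 to 750 exonic bases had a median of 0.21, against 0.35 with it. For 65 of the 72 members, null female library 1 held the highest level of all 12 libraries. The spread between replicates was widest in null females, with a median coefficient of variation of 16.8%, against 9.20% in wild-type females, and 6.66% in null males, against 6.69% in wild-type males.

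**Figure D3:**
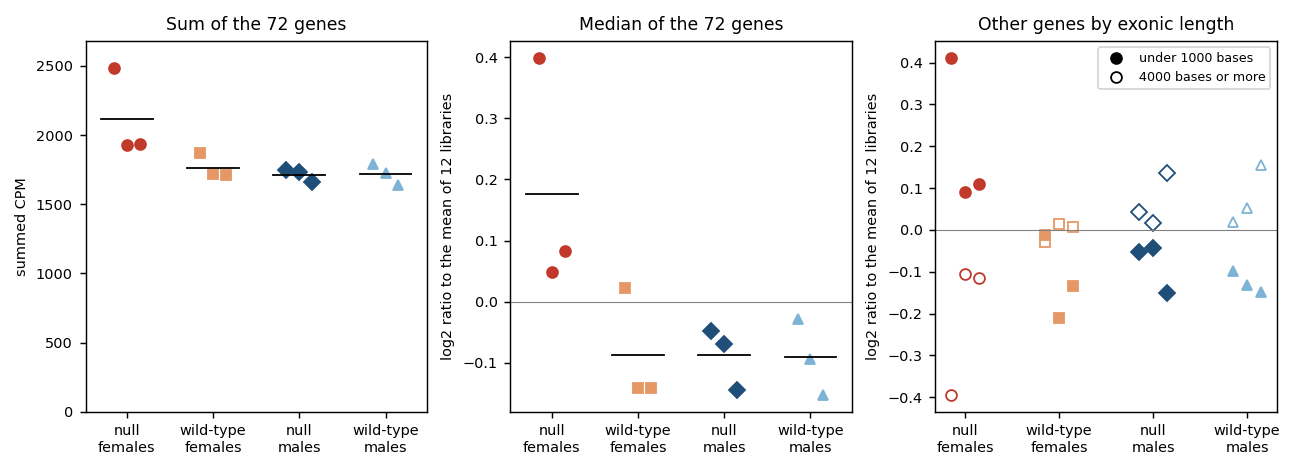
Each point is 1 library, with group means as lines in the first and second panels: the summed CPM of the 72 genes, their median log2 ratio to the mean of the 12 libraries, and the same median for other protein-coding genes under 1000 exonic bases (filled) and of 4000 or more (open). Null female library 1 is highest for the members and for other short genes and lowest for long genes, and the other null female libraries lean the same way by about 0.1.

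The female change also went with gene length, which the choice of members did not use. Other protein-coding genes under 1000 exonic bases (1575 genes) had a median log2 change of 0.33 in females, with 37.2% called higher and 6.48% called lower. Those of 4000 bases or more (2090 genes) had a median of -0.18, with 4.45% called higher and 25.4% called lower. Within ranges of length the members lay near other genes. Up to 500 bases, the median was 0.49 for 6 members, against 0.48 for other genes. From 500 to 750 bases it was 0.34 for 27 members, against 0.35. From 750 to 1000 bases it was 0.31 for 17 members, against 0.25, and from 1000 to 1500 bases it was 0.18 for 19 members, against 0.17. The last 3 members, of 1500 to 2500 bases, had a median of 0.28, against 0.05 for other genes of that range.

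The length trend was steepest in null female library 1, where other short genes stood at a median log2 ratio of 0.41 to their mean over the libraries and long genes at -0.39, but it was present in null female libraries 2 and 3 too (0.09 and 0.11 for short genes, -0.10 and -0.11 for long genes). In an analysis added after the data were seen, the trend of each library on exonic length was removed as an offset. Then 5 members rose in null females (mRpS25, mRpL14, mRpS9, mRpL21 and mRpS30), 2 fell (mRpL12 and mRpL18), and the median log2 change was 0.06. This correction removes any true change that follows length as well, and whether the trend lies in the flies or in the libraries was not tested. With the correction and without null female library 1, mRpS25 rose and mRpL18, mRpL34 and mRpS35 fell.

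**Figure D4:**
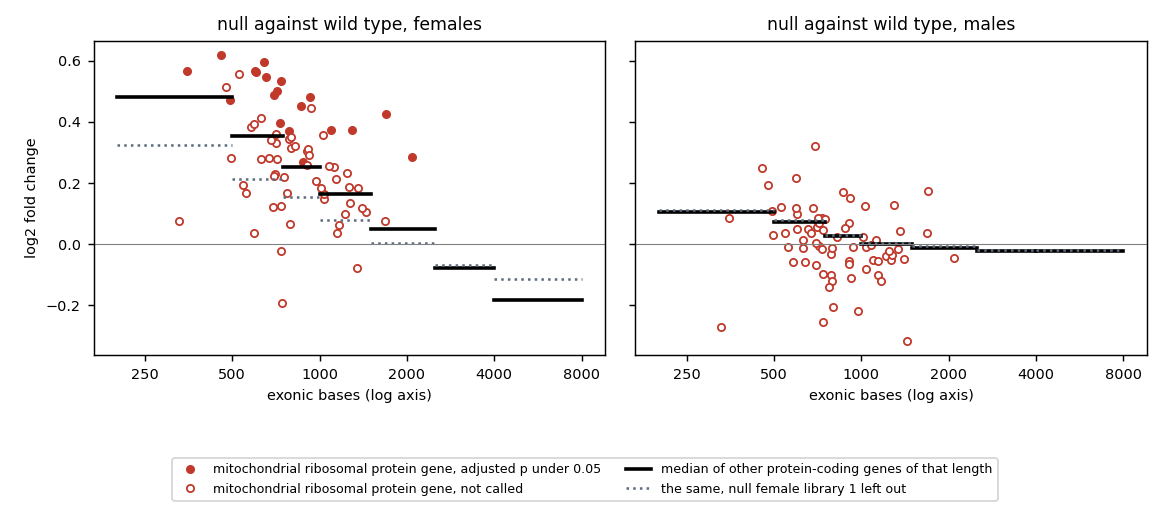
Log2 fold change, null against wild type, of each of the 72 genes against its exonic length on a log axis, in females on the left and males on the right, with the median of other protein-coding genes in each range of length as a thick line (the first range starts at 0 and the last has no upper limit) and the same without null female library 1 as a dotted line. In females both the members and the other genes fall with length, and in males the line is nearly flat.

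Summed cell type markers differed in the same comparison, in which 31.8% of all genes tested were called. The 6 fat body markers, all measured above 0 in every group and 5 of them called in females, summed to 19311 to 33810 CPM in null females, against 2777 to 4909 CPM in wild-type females, and to 2395 to 5238 CPM in null males, against 1280 to 2639 CPM in wild-type males. Of the 4 neuronal markers 1 was called, and they summed to 893 to 1263 CPM in null females, against 1383 to 1442 CPM in wild-type females. The markers Syt1, brp and nSyb were lower without overlap, and elav overlapped. Of the 4 photoreceptor markers 1 was called, and they summed to 26339 to 32956 CPM in null females, against 20221 to 22806 CPM in wild-type females, although norpA, at 944 CPM, was lowest in null female library 1. The largest part was ninaE, at 14006 to 19221 CPM in null females, against 9738 to 10864 CPM in wild-type females. The marker trp was also higher without overlap, while ninaC and norpA overlapped. Of the 4 muscle markers 1 was called (11285 to 13337 CPM in null females, against 13592 to 16170 CPM in wild-type females), and of the 3 haemocyte markers 2 (233 to 249 CPM, against 354 to 430 CPM). The muscle markers Mhc, up and TpnC73F were lower without overlap, and Mlc2 overlapped. The haemocyte markers went in different directions. Null females had less Hml (13.5 to 28.2 CPM, against 173 to 219 CPM) and more NimC1 (74.5 to 103 CPM, against 52.2 to 59.3 CPM), and Pxn overlapped. None of these sums overlapped between the female groups. Without null female library 1, the fat body sum was 19311 to 21467 CPM in null females. The neuronal sum was then 1226 to 1263 CPM and the photoreceptor sum 26339 to 27054 CPM. The calls of markers are given with that library only. The sum of the 3 glial markers, 1 of them called, overlapped. Their part in the change of the members was not tested.

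In males, no mitochondrial ribosomal protein gene passed the test between null and wild-type heads. Of all genes tested, 9.93% were called in this comparison, 4.89% higher and 5.03% lower. By edgeR, 0 of 72 members were called, with 3 at an unadjusted p under 0.05 (1 higher, 2 lower), and DESeq2 also called 0. The median log2 change was 0.00, from -0.32 to 0.32, with 36 members above 0 and 36 below. Summed CPM was 1749, 1731 and 1658 in null males, against 1788, 1728 and 1642 in wild-type males, and the groups overlapped throughout. Null libraries lay above all wild-type libraries for 5 members (16.4% of all genes did so) and below them for 6 (17.6% of all genes).

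The member nearest to a call in males was mRpS29, the fly relative of human DAP3, a GTP-binding protein of the small subunit. It had 21.4, 21.9 and 20.3 CPM in null males, against 27.5, 25.8 and 26.0 CPM in wild-type males. The groups did not overlap, and the log2 change was -0.32 (SE 0.11, adjusted p = 0.0819). In 5 of 20 alternatives it passed the threshold, among them the analysis without null female library 1 (adjusted p = 0.00841), and over all alternatives its adjusted p ran from 0.00385 to 0.219. In the other direction, mRpS28 had 8.27, 9.07 and 9.90 CPM in null males, against 7.75, 7.63 and 6.41 CPM in wild-type males, without overlap (0.32, SE 0.13, adjusted p = 0.163). The leading female genes did not pass in males, at 0.25 for mRpL55 (SE 0.16, adjusted p = 0.374), -0.06 for mRpS25 (SE 0.13, adjusted p = 0.861) and 0.09 for mRpL33 (SE 0.16, adjusted p = 0.813).

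Whether the null effect differed between the sexes was tested directly. Only 0.00891% of all genes, 1 gene, were called in this difference, and it was not a member. Of the members 0 were called by edgeR and 0 by DESeq2, and 14 (19.4%) had an unadjusted p under 0.05, all with the larger change in females, against 7.70% of all genes in that direction and 3.86% in the other, and 17.8% and 1.78% of other protein-coding genes under 1000 exonic bases. The female effect minus the male effect had a median of 0.27 over the members (0.13 without null female library 1, 0.07 with the length correction), against 0.03 over all genes, and was above 0 for 68 of 72. Other protein-coding genes under 1000 exonic bases had the same median, 0.27 (0.14 without null female library 1). The 3 members with the smallest unadjusted p were mRpS25 (0.65, SE 0.19), mRpS2 (0.59, SE 0.18) and mRpS29 (0.42, SE 0.15), each with an adjusted p = 0.427 in edgeR. For mRpS2, null females had 30.0, 22.6 and 21.3 CPM, against 16.6, 18.9 and 17.4 CPM in wild-type females, while null males had 15.5, 15.6 and 17.6 CPM, against 18.5, 16.1 and 18.1 CPM in wild-type males. The female groups were apart and the male groups overlapped. A change called in females and not in males is thus not shown to differ between them for any member.

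Between the sexes in wild-type heads, 1 member differed, and it was X-linked. Of all genes tested, 3.37% were called here, 1.3% higher and 2.07% lower in males. The members had a median log2 difference, males over females, of -0.01, and 1 of 72 was called. This was mRpS25, with 23.4, 21.96 and 20.2 CPM in wild-type males, against 16.2, 13.0 and 14.3 CPM in wild-type females. The groups did not overlap, and males were higher by 0.59 on the log2 scale (SE 0.13, adjusted p = 0.0318). The call was lost when any one of 4 wild-type libraries was left out (female 2, female 3, male 1 and male 2), and the difference then and with other libraries left out was 0.52 to 0.68. Next in size came mRpL14, also on X, with 17.7, 17.4 and 15.6 CPM in wild-type males, against 14.1, 10.9 and 10.6 CPM in wild-type females. It showed no overlap and a difference of 0.51 (SE 0.13, adjusted p = 0.0671), and it passed the threshold in 7 of 20 alternatives. The 11 members on X had a median difference of 0.14, with 9 above 0, against -0.02 for the 61 autosomal members. Other protein-coding genes had a median of 0.01 on X (1636 genes) and -0.01 on the autosomes (8500 genes).

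For these 2 genes wild-type females were the low group of 4. Their change in females and their difference between wild-type sexes are read from the same wild-type female libraries. These are therefore not separate results. The gene mRpS25 had 22.6, 20.97 and 19.4 CPM in null males, and mRpL14 had 17.995, 18.6 and 15.9 CPM, so that null females, null males and wild-type males overlapped while wild-type females lay below every other library. In null heads neither gene passed the test between the sexes (males over females, -0.06, SE 0.13, adjusted p = 0.752 for mRpS25 and 0.01, SE 0.13, adjusted p = 0.960 for mRpL14).

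**Figure D5:**
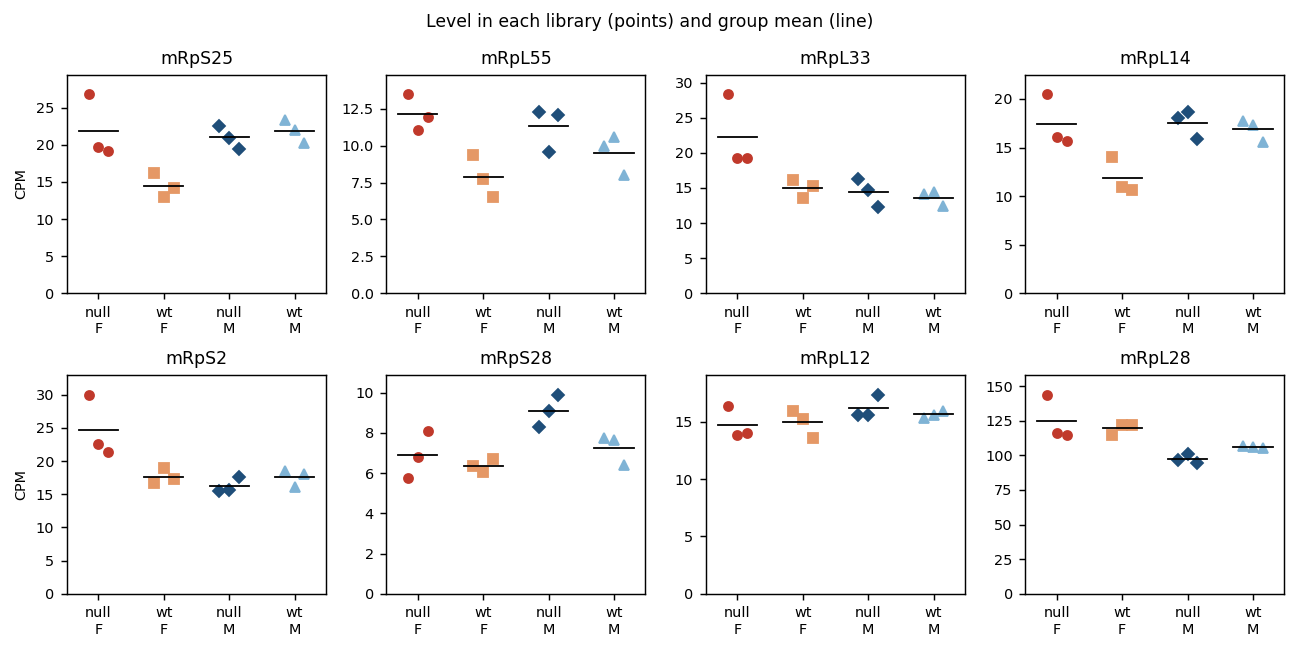
Level in CPM in each library (points) with group means (lines) for 8 genes, groups from left to right being null females, wild-type females, null males and wild-type males. Wild-type females are lowest for mRpS25 and mRpL14, null females are highest for mRpL33 and mRpS2, null males are highest for mRpS28, and all groups overlap for mRpL12.

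Null males were set against null females as the last comparison. It shares the null female libraries with the first one, so a gene raised in those libraries is read again here from the other side. Of all genes tested, 29.1% were called, 16% lower and 13.1% higher in males. Of the members, 23 were lower (31.9%) and 1 higher in null males. Of other protein-coding genes under 1000 exonic bases, 25.3% were lower. The median log2 difference was -0.30 for the members, against -0.06 for all genes and -0.29 for those other short genes. For 45 of the 72 members all male libraries lay below all female ones. Of all genes, 25.3% did so, and of the 1575 other short genes 613 did. The 8 lowest were mRpL33, mRpS2, mRpL46, mRpS17, mRpL27, mRpS14, mRpL42 and mRpL9, with differences from -0.62 to -0.48. For mRpL33, null males had 16.3, 14.8 and 12.3 CPM, against 28.3, 19.3 and 19.3 CPM in null females (-0.62, SE 0.16, adjusted p = 0.0159). For mRpL46, a large-subunit protein without a bacterial counterpart, null males had 19.96, 19.0 and 16.9 CPM, against 35.2, 24.1 and 23.2 CPM in null females (-0.56, SE 0.14, adjusted p = 0.0151). In both genes the female libraries were all higher, library 1 by the widest margin. Of the others, mRpS14, whose bacterial relative lies in the head of the small subunit and which shares 35.8% of its exonic bases with other genes, had 18.2, 19.5 and 16.4 CPM in null males, against 34.4, 21.7 and 22.9 CPM in null females (-0.54, adjusted p = 0.0232). For mRpL27, whose bacterial relative reaches the peptidyl transferase center, null males had 26.5, 26.7 and 24.9 CPM, against 53.0, 31.3 and 30.3 CPM in null females (-0.55, adjusted p = 0.0392). The groups were apart in both. Of the 23 lower members, 8 were among the 19 called in the female comparison.

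The single member higher in null males was mRpS28, with 8.27, 9.07 and 9.90 CPM in null males, against 5.75, 6.82 and 8.12 CPM in null females. The groups were apart by a narrow gap, and the difference was 0.39 (SE 0.14, adjusted p = 0.0474), called in 7 of 20 alternatives. Null female library 1 was here the lowest of the group, unlike for most members. Without that library the count was 10 members, all lower in males, with a median of -0.14. Leaving out null male library 1, 2 or 3 gave 11, 13 and 2, and with the length correction 6 were lower and 2 higher, with a median of -0.08.

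Other genes of mitochondrial gene expression were read between null and wild-type heads, where 31.8% of all genes were called in females and 9.93% in males. The lists below were drawn up by function with earlier results of these data known. Median exonic length was 1711 bases for translation factors, 2292.5 for synthetases and partners, and 1965 for transcription and upkeep of DNA. The members had a median of 783 bases, and the part of length in these counts was not tested. Of the ribosomal proteins under other names, tko rose in null females, at 51.6, 34.3 and 35.3 CPM, against 30.4, 25.2 and 30.2 CPM in wild-type females (0.50, SE 0.14, adjusted p = 0.0218), and bonsai, the relative of bacterial S15, did not pass the test (0.09, SE 0.10, adjusted p = 0.503). Of 9 translation factors, 0 were called in either sex, with a median log2 change of 0.07 in females. Among 18 aminoacyl-tRNA synthetases and partners, which charge the mitochondrial tRNAs, 1 rose (GatA, 0.62, adjusted p = 0.0133) and 1 fell in females. The gene that fell, ValRS-m, was the only gene of these lists called in both sexes. It had 18.5, 17.1 and 17.2 CPM in null females, against 20.7, 20.6 and 20.1 CPM in wild-type females (-0.22, SE 0.07, adjusted p = 0.0335), and 16.6, 16.2 and 15.7 CPM in null males, against 20.2, 19.4 and 20.1 CPM in wild-type males (-0.30, SE 0.07, adjusted p = 0.0182). Null libraries were below all wild-type libraries in both sexes. Of 12 genes for transcription and upkeep of mitochondrial DNA, 1 rose in females, the single-stranded DNA-binding protein mtSSB (0.64, SE 0.17, adjusted p = 0.0130). Without null female library 1, ValRS-m and GatA were still called in females (adjusted p = 0.0164 and 0.0371), while tko (0.27, adjusted p = 0.0647) and mtSSB (0.48, adjusted p = 0.0511) were not. In null males over null females, 3 of 9 translation factors, 5 of 12 genes for transcription and upkeep of DNA and tko were lower, and of the 18 synthetases and partners 1 was lower and 1 higher, where 29.1% of all genes were called. Apart from ValRS-m, the genes named in these lists were picked after their values were seen.

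Lists outside the organelle's own gene expression were read beside the members. Between null and wild-type females, 18.2% of all genes were called higher and 13.6% lower. Of other protein-coding genes under 1000 exonic bases, 37.2% were called higher and 6.48% lower. The share called higher was 36.6% for the respiratory chain, 45.5% for protein import and 73.5% for cytosolic ribosomal proteins. Median exonic lengths of these lists were 871, 1008 and 921.5 bases. Of 71 respiratory chain genes encoded in the nucleus, 26 rose and 0 fell in null females, with a median log2 change of 0.29 (5 rose and 3 fell with the length correction, and 11 rose without null female library 1). Of 11 genes of protein import, through which the ribosomal proteins enter, 5 rose and 0 fell, with a median of 0.06 and 4 below 0. They were Tom7, Tim8, Tim9a, the nucleotide exchange factor Roe1 and the chaperonin Hsp60A, at 0.28 to 0.59. Without null female library 1, 3 of them were called (Tim8, Tim9a and Roe1). The 6 others, Tom20, Tom40, Tom70, Tim17b, Tim23 and Hsc70-5, lay between -0.13 and 0.06. Of 83 cytosolic ribosomal proteins, 61 rose and 0 fell, with a median of 0.46 (28 rose and 0 fell with the length correction, and 49 rose without null female library 1). In males 0 genes of these 3 lists were called, where 9.93% of all genes were. Without null female library 1, which enters the shared fit, 1 respiratory chain gene, 1 import gene (Roe1, 0.31, adjusted p = 0.0201) and 4 cytosolic ribosomal protein genes were higher in null males. In that fit 1 respiratory chain gene was lower. Summed cytosolic over summed mitochondrial ribosomal protein CPM was 32.5, 28.5 and 29.3 in null females, against 24.8, 27.3 and 26.8 in wild-type females, so the cytosolic set stood higher relative to the mitochondrial set in every null female library. In males this ratio was 25.5, 26.3 and 24.8 in null heads, against 23.7, 23.7 and 26.2 in wild-type heads, and the groups overlapped.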

How the data were processed

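Heads of 4 groups of sex and genotype were profiled, 3 libraries each. The deposited files hold whole-number counts per gene, made by the authors, per the submitters' processing notes, with STAR 2.5.2b-0 and featureCounts 1.6.0.3 on build BDGP6. The annotation release and strand setting are not given in the sources used here, and 1 file name, that of the third null male library, carries a read-orientation remark, which the others lack. The authors' normalized table (12 columns of per-sample values) and comparison table were not used.

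The software was R 4.3.3 and edgeR 4.0.16. After filterByExpr 11223 genes remained. TMM gave the scaling, and all 12 libraries entered a single quasi-likelihood fit of group means, with 5 contrasts and Benjamini-Hochberg adjustment over all genes in each. It was tested on simulated data. The common biological coefficient of variation was 13.5%. CPM is the count over the TMM-scaled library size, and the SE is the log2 change over the root of the F statistic. Names were matched to Ensembl 115 (BDGP6.54), 14134 by symbol and 3510 by synonym. Members with the highest and lowest called changes (up to 8 a contrast), the extremes of level, the stalk and S18 genes, and the 3 smallest p-values of the difference were named. Members and lists were chosen with earlier results of these data known. Alternatives were RLE factors, total counts, no filter, DESeq2 1.42.0, a replicate block, only the compared groups, each library left out, and, added after the data were seen, a length correction (a loess of log2 ratio on log2 exonic length, span 0.5, as an offset).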

Additional observations from a re-analysis of the deposited data

How the results depend on the processing

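Called members in females numbered 16 with RLE factors, 16 without a filter and 20 with DESeq2. They moved to 11 (10 higher) with total counts, 6 with only the compared groups, 7 with the length correction and 4 with it and without null female library 1, and ranged over 4 to 31 with 1 library left out. Total counts put the median of all genes at -0.10 and the calls at 1392 higher and 2253 lower, against 2042 and 1531, so the members' median of 0.17 is 0.27 above it. The medians with the length correction, without and with library 1 left out, were 0.0584 and 0.0039 in females, 0.066 and 0.0418 for the difference, and -0.0768 and -0.0304 for null males over null females.

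In males the calls were 1 with total counts, 1 with only the compared groups, and 2 and 4 with the length correction, all lower, and 0 to 1 with 1 library left out. For wild-type males over females they were 2 with total counts, with DESeq2 and with the length correction, 3 with it and without library 1, and 0 to 2 with 1 library left out. For null males over null females they were 11 with total counts (2078 genes higher and 859 lower, against 1471 and 1794), 0 with only the compared groups, 8 and 2 with the length correction, and 2 to 35 with 1 library left out. In the difference, 0 members were called under every alternative run, and it could not be fitted with only 2 groups.

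The female change of mRpL28 turned to -0.0574 with total counts, -0.122 with the length correction and -0.159 with it and without null female library 1, and ranged over -0.0641 to 0.12 with 1 library left out, the lowest being without null female library 1. That of mRpS28 turned to -0.135 and that of mRpS6 to -0.0022 with the length correction. The causes were not tested.

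A replicate block gave 32 called members in females, 0 in males, 2 between wild-type sexes and 35 between null sexes. The numbers were not treated as pairs. Deviations of same-numbered libraries correlated at -0.19 to 0.31, and not every library matched its own number best. Libraries numbered 1, however, matched each other best in every pair of groups, at correlations of 0.19 to 0.27. Those numbered 2 and 3 did so only in part. What the libraries numbered 1 share is not given in the labels and was not tested.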
